A study of Mus musculus with 6 samples.

Results

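The genes described here are 10 members of the Bcl2 family, chosen by name and found in the count table by their Ensembl identifiers, out of 16312 genes in all. They comprise 4 pro-survival members (Bcl2, Bcl2l1, Bcl2l2 and Mcl1) and 6 pro-death members (Bcl2l11, Bak1, Bad, Bid, Bmf and Bok). RNA was sequenced from haematopoietic stem cells (HSCs), the cells that renew the blood, sorted from bone marrow of male C57BL/6N mice. Of the 6 mice, 3 were young (8 to 12 weeks) and 3 were old (22 months). Both are labelled as B6 controls of a parabiosis study, in which animals are joined by surgery, and the labels give no other allele or agent. Which surface markers defined the sort is not stated in these sources.

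Bcl2 family proteins decide whether the outer membrane of the mitochondrion is opened, the step that releases cytochrome c and starts the caspases. Bak1 encodes a pore-forming protein, Bcl2l11 (BIM), Bad, Bid and Bmf encode BH3-only proteins that activate the pore formers or occupy their guardians, and Bcl2, Bcl2l1 (BCL-XL), Bcl2l2 (BCL-W) and Mcl1 encode the guardians. Mcl1 is known to be required for the survival of HSCs, and its messenger RNA and protein are both short-lived.

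The shallowest library held 12494557 counts (old replicate 2) and the deepest 30931680 (young replicate 3), and all 10 members were among the 14288 genes that passed the filter on low counts. Levels are given as CPM, counts per 1000000 of the TMM-scaled library size, and changes as old over young from edgeR's quasi-likelihood test with Benjamini-Hochberg adjustment over all genes tested. All 10 HSC markers were measured, with summed levels of 3321 to 3915 CPM in young and 3559 to 3918 CPM in old libraries. Summed macrophage markers, 12 measured of 12, ran from 67.2 to 75.6 CPM in young and from 19.8 to 22.2 CPM in old libraries, and Fcna, Cd5l, C1qb and Adgre1 were at 0 in every old library. Summed erythroid markers (12 of 12) ran from 842.6 to 1266 CPM in young and from 771.4 to 937.3 in old libraries, sums made up mostly of Car2 (log2 fold change −0.07). All 10 erythroid markers tested had negative log2 values and 3 fell, against 1.54% of all tested genes called lower. They were Car1 (−6.48), Klf1 (−2.84) and Ermap (−2.66), each highest in young replicate 1. Summed neutrophil markers (8 measured of 10) were 236.9, 16.6 and 48.3 CPM in the young libraries and 5.57 to 8.43 in the old ones. Of 5 tested, 4 fell with edgeR, against 1.54% of all tested genes called lower. With limma-voom 0 erythroid and 0 neutrophil markers were called. Summed B cell (4 of 7) and T and NK cell (5 of 8) markers overlapped between the ages, at 17 to 21.9 and 13 to 27.8 CPM. Endothelial markers (6 of 7) summed to 128.3 to 198.9 CPM in young and 205 to 251.6 in old libraries, and megakaryocyte markers (7 of 7) to 211.9 to 282.6 and 541.2 to 670.6. Of the endothelial ones 3 rose, Kdr (2.78), Cldn5 (4.22) and Clec14a (1.5), 5 had positive log2 values and 1 a negative one. Of the megakaryocyte ones 2 rose, Vwf (2.425) and Itgb3 (1.31), 5 had positive and 2 negative values. Pf4 (−0.66) was lower in every old library. Of all tested genes, 2.45% were called higher. The part of these other cell types in the results below was not tested. By their titles the old libraries were numbered in 1 unbroken run, unlike the young, so age and a step run in that order cannot be told apart. The title and description of young replicate 2 disagree on its number, and without it Mcl1, Pim1, Pim2, Stat3 and Tnfsf10 kept their calls (highest adjusted p = 0.0366, Stat3). With RNA of many cells per library, fewer cells of a type and less RNA per cell cannot be told apart.

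Among the 10 members, Mcl1 rose 2.07-fold in old mice and was the only one to pass the test. The other pro-survival members, Bcl2, Bcl2l1 and Bcl2l2, did not pass, and neither did any of the 6 pro-death members (edgeR, and 0 also with DESeq2 and limma-voom). An unadjusted edgeR p under 0.05 was found for 2 of these 6 and for 4 of all 10 members, against 16.5% of all tested genes. One called gene among 10 is set against 3.99% of all tested genes called (2.45% higher and 1.54% lower in old mice). The members were chosen with earlier results of these data known, so this is a description and no test. The pro-death members Bcl2l11 and Bid had lower levels in every old library than in any young one, without passing the adjusted threshold. In all, libraries of the ages stood apart without overlap for 3 of the 10 members, 1 higher and 2 lower in old mice, against 22.4% of all tested genes (11.6% higher and 10.8% lower). The median log2 fold change was 0.17 over the 10 members and −0.02 over all genes tested.

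The promoters of Mcl1 and Bcl2l11 are shown because these are the pro-survival and the pro-death member with the largest difference between non-overlapping groups. Each is the run of 250 bases before the gene's start in RefSeq (build GRCm38.p6, 5′ to 3′ on the plus strand). The Mcl1 window is chr3:95658471-95658720 and the Bcl2l11 window, the first of its 2 starts in that table, is chr2:128125788-128126037. Capitals mark matches to the Ets core CCGGAAG, which reads CTTCCGG on the other strand, and to the FoxO site GTAAACA.
Mcl1: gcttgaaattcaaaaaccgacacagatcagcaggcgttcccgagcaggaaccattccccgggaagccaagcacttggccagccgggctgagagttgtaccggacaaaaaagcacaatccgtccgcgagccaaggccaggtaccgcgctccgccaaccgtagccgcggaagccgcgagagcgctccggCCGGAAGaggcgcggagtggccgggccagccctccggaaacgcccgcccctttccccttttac
Bcl2l11: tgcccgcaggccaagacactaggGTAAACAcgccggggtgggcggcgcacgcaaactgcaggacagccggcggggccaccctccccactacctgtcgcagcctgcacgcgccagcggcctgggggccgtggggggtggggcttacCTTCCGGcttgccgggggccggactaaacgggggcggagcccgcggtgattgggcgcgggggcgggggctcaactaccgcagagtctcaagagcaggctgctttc
The Ets core stood in 6.91% of 32851 RefSeq promoter windows of this length and the FoxO site in 3.17%. Both strands were searched, and the 10 members had 16 windows. Among them the Ets core was found in the windows of Mcl1 and Bcl2l11, and the FoxO site in that of Bcl2l11, a gene known as a target of FoxO factors. No member window held the CRE letters TGACGTCA (1.55% of all windows), the AP-1 letters TGACTCA or TGAGTCA (4.46%), the Egr1 letters GCGTGGGCG (0.536%) or the STAT letters TTCNNNGAA (7.02%). The SP1 letters GGGCGG, not marked above, stood in 8 of the 16 member windows and in 32.7% of all windows, and they can overlap the Egr1 letters in part. These matches describe letters and do not show binding.

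**Figure D1:**
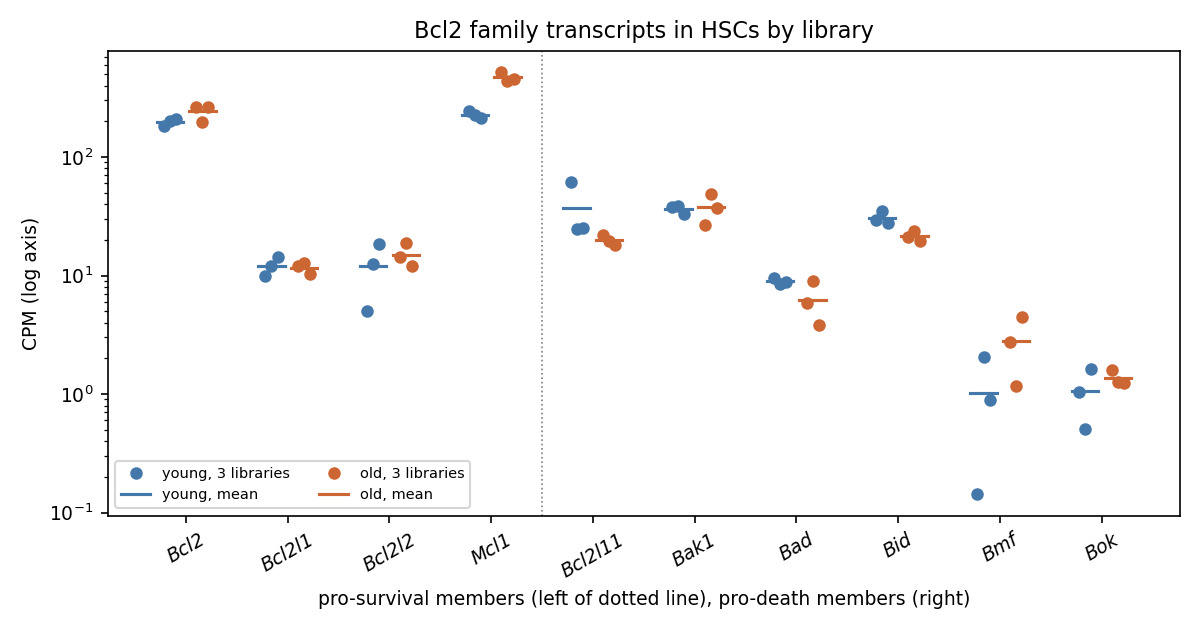
CPM of each member on a log axis, with 1 point per library and a bar at the mean of each age group of 3. Mcl1 is the member whose old libraries, at 440.8 to 522.8 CPM, lie well above its young ones, at 213.8 to 244.9 CPM.

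Mcl1 (ENSMUSG00000038612.16) lies on chromosome 3 from 95658788 to 95663176 in GRCm38. Its level was 244.9, 226 and 213.8 CPM in young replicates 1 to 3 and 522.8, 440.8 and 453.2 CPM in old replicates 1 to 3. The groups did not overlap, and the lowest old library lay far above the highest young one. The mean rose from 228.2 ± 15.7 to 472.3 ± 44.2 CPM (SD, n = 3), a log2 fold change of 1.05 ± 0.11 SE or 2.07-fold, with a 95% interval of 1.75 to 2.44-fold (edgeR adjusted p = 0.000341). Each library held between 5166 and 12395 counts of Mcl1, so counting error is small beside the spread between mice. The call held in all 12 alternatives, with log2 values of 0.98 to 1.10, and without young replicate 2 the value was 1.04 (adjusted p = 0.00229). The authors' deposited table gives Mcl1 a log2 fold change, young over old, of −0.90 (SE 0.14) and an adjusted p of 1.58e-08.

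Mcl1 is known as a rapidly induced gene, and it rose in libraries that also held more immediate early transcripts. Of 16 immediate early genes measured, 15 rose and none fell, against 2.45% of all tested genes called higher and 1.54% lower. That list was chosen with earlier results of these data known. Their summed level was 504 to 616.2 CPM in young and 4259 to 4776 CPM in old libraries. The part of that difference in the Mcl1 result was not tested.

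Bcl2 (ENSMUSG00000057329.7), the founding guardian of the family, lies on chromosome 1 from 106538178 to 106714274. It stood at 184.2, 200.1 and 210.1 CPM in the young libraries and at 265.4, 199.2 and 266.5 CPM in the old ones. Old replicate 2 lay within the young range, while the other old libraries lay above it. The log2 fold change of 0.30 ± 0.13 SE did not pass (edgeR adjusted p = 0.283, unadjusted p = 0.0425), and its 95% interval reached from 1.01 to 1.5-fold. Without old replicate 2 the log2 value was 0.43 (adjusted p = 0.13).

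Bcl2l1 and Bcl2l2, the guardians BCL-XL and BCL-W, were measured at much lower levels. Bcl2l1 (chromosome 2, 152780668 to 152831728) stood at 9.86, 12 and 14.4 CPM in young and 12, 12.7 and 10.2 CPM in old libraries. The old values lay within the young range, with a 95% interval of 0.628 to 1.46-fold for the ratio of old to young. Bcl2l2 (chromosome 14, 54883377 to 54888234) stood at 5.03, 12.6 and 18.3 CPM in young and 14.3, 18.9 and 11.9 CPM in old libraries. Young replicate 1 was the low sample, the groups overlapped, and the interval of 0.676 to 2.31-fold leaves a doubling undecided. Exons of Bcl2l2 share 594 bases with Gm20521 on the same strand, a gene whose mean level was 0.0611 CPM in young mice and 0.113 in old ones.

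The change of Mcl1 beside those of its fellow guardians was described by the log2 ratio of their CPM within each library. Mcl1 is the only member called in these same libraries, so setting it against the others favours a larger difference. Mcl1 over Bcl2 was 0.41, 0.18 and 0.03 in the young libraries and 0.98, 1.15 and 0.77 in the old ones. All old ratios were above all young ones, a mean difference of 0.76 (exact permutation test, two-sided, p = 0.1, the smallest that 20 arrangements allow, and adjusted p = 0.15 over 3 pairs). Mcl1 over Bcl2l1 differed by 1.10 without overlap (exact permutation p = 0.1, adjusted p = 0.15), while Mcl1 over Bcl2l2 differed by 0.55 with overlapping groups (exact permutation p = 0.5). With 3 against 3 mice this permutation test cannot give a p under 0.1.

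**Figure D2:**
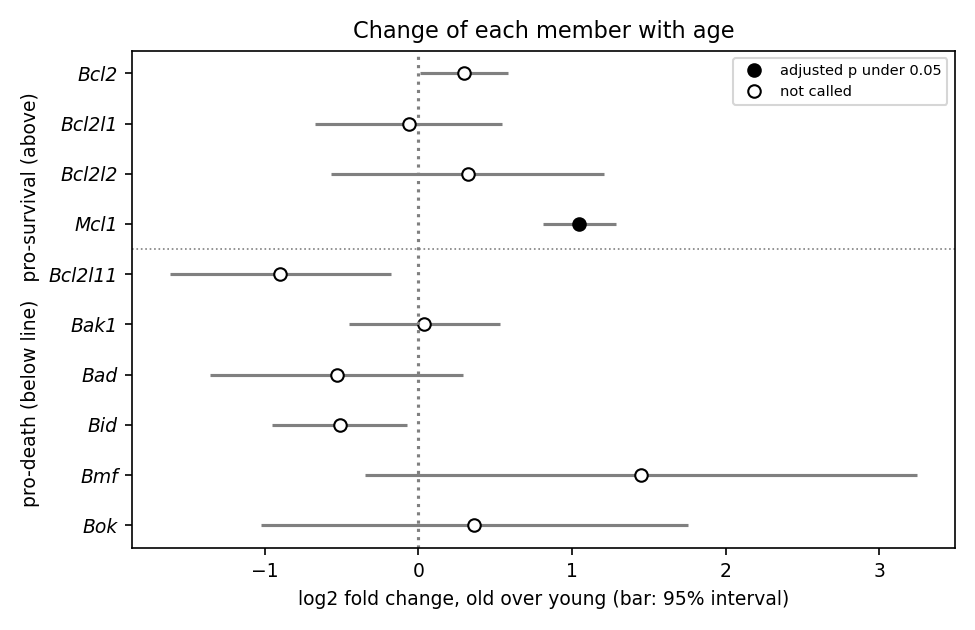
Log2 fold change of each member, old over young, with its unadjusted 95% interval from the edgeR fit. The filled point of Mcl1 at 1.05 is the only called member, and the interval of Bmf, from −0.34 to 3.25, is the widest of the 10.

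Bcl2l11 (ENSMUSG00000027381.16), the gene of the BH3-only activator BIM, lies on chromosome 2 from 128126038 to 128162547. Its level was 61.7, 24.7 and 25.2 CPM in young replicates 1 to 3 and 22.1, 19.5 and 18.1 CPM in old replicates 1 to 3. All old libraries lay below all young ones, and young replicate 1 stood far above the rest. The log2 fold change was −0.90 ± 0.33 SE (edgeR adjusted p = 0.179, unadjusted p = 0.0186). Without young replicate 1 the log2 value was −0.32 (adjusted p = 0.51), so that library carried most of the difference. Young replicate 1 also had the highest sums of neutrophil (236.9 CPM) and erythroid (1266 CPM) markers, and the part of those cells in its Bcl2l11 level was not tested.

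Bid (ENSMUSG00000004446.12), whose protein links death receptors to mitochondria once cleaved by caspase-8, lies on chromosome 6 from 120891930 to 120916853. It stood at 29.5, 34.7 and 27.7 CPM in young and 21.3, 23.6 and 19.7 CPM in old libraries. The groups did not overlap, and the log2 value ran from −0.58 to −0.41 over 12 alternatives. The log2 fold change was −0.51 ± 0.20 SE (edgeR adjusted p = 0.22, unadjusted p = 0.0267), and no alternative brought Bid past the threshold (lowest adjusted p = 0.144). Exons of Bid share 628 bases with Bcl2l13 on the opposite strand, which had a log2 value of 0.07. Whether the counting used strand is not stated, so reads from the shared bases may belong to either gene.

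Bak1, the pore-forming member (chromosome 17, 27019810 to 27029009), stood at 38, 38.4 and 33.1 CPM in young and 26.7, 49.2 and 37.1 CPM in old libraries. Old libraries held both the lowest and the highest value, and the ratio of old to young had a 95% interval of 0.731 to 1.45-fold. The direction of Bak1 turned in 5 of 12 alternatives, and none of its values passed. Its exons share 437 bases with Ggnbp1 on the opposite strand, a gene at 7.48 and 7.25 CPM in young and old mice. Bad, a BH3-only gene whose product is held inactive by 14-3-3 proteins when phosphorylated (chromosome 19, 6941861 to 6951899), stood at 9.48, 8.51 and 8.83 CPM in young and 5.86, 8.97 and 3.85 CPM in old libraries. The groups overlapped through old replicate 2, and the log2 value of −0.53 ± 0.38 SE did not pass (edgeR adjusted p = 0.558). Exons of Bad share 524 bases with Gpr137 on the opposite strand.

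Bmf and Bok were scarce. Bmf, a BH3-only gene (chromosome 2, 118528757 to 118549687), had 3, 52 and 29 counts in the young and 65, 14 and 98 counts in the old libraries, or 0.142, 2.04, 0.887, 2.74, 1.17 and 4.49 CPM. The groups overlapped, and its log2 value of 1.45 ± 0.82 SE did not pass (edgeR adjusted p = 0.431). That value was 0.95 without young replicate 1 or old replicate 3, and 2.41 without young replicate 2. Bok, a relative of the pore formers (chromosome 1, 93685660 to 93695764), had between 13 and 53 counts per library and a log2 value of 0.37 ± 0.64 SE. A doubling of either gene was not resolved by these libraries, as the 95% intervals of old to young reached from 0.788 to 9.50-fold for Bmf and from 0.491 to 3.38-fold for Bok.

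Levels of different genes were compared per kilobase of merged annotated exons, a scale on which long or little-used exons lower a gene's value. Among the members in young libraries, Mcl1 was the most abundant at 66.8 ± 4.59 CPM per kilobase (SD, n = 3). It was followed by Bcl2 at 21.6 ± 1.43, Bak1 at 15.2 ± 1.21 and Bid at 8.63 ± 1.02. These 4 ranges did not overlap, and Bid was set apart from the next member as well. Bcl2l11, Bad, Bcl2l2 and Bcl2l1 followed at 4.63 to 2.64 CPM per kilobase with overlapping neighbours, and Bok (0.575) and Bmf (0.195) came last, also overlapping. In old libraries the first 4 places were the same, with Mcl1 at 138.2 ± 12.9 and Bcl2 at 26.6 ± 4.21 CPM per kilobase, and the order of the next 4 changed within overlapping ranges.

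Summed per kilobase over the chosen members, pro-survival transcripts stood at 95, 93.4 and 92.7 CPM per kilobase in young libraries. In old libraries they stood at 187.8, 157.7 and 166.6. Pro-death transcripts stood at 36.1, 32.8 and 29.2 in young and 23.5, 33.9 and 26.3 in old libraries, with overlap. The pro-survival share of the members' summed level was thus 72.5%, 74% and 76% in young and 88.9%, 82.3% and 86.4% in old libraries. Its means were 74.2% ± 1.79 and 85.9% ± 3.32 (SD, n = 3), a difference of 11.7 percentage points. No test is given for this sum over chosen genes. Mcl1 alone made up 51.3% to 54.6% of the members' summed level in young and 67.3% to 72.4% in old libraries. Other Bcl2 family genes were left out of both sides. Among them, mean levels in young and old mice were 71.3 and 82.0 CPM per kilobase for Bnip3l and 3.77 and 3.55 for Bax. The shares are therefore not of all Bcl2 family transcripts. With Mcl1 and Bak1, the most abundant of each side, left out, the share was 60.5% ± 6.41 in young and 72.5% ± 4 in old mice. In that sum the lowest old library, at 68.1%, lay above the highest young one, at 66.1%, by less than the spread within either group. Leaving out Bak1 also took away the pro-death member that was highest in old replicate 2, at 20.4 CPM per kilobase. The separation in that sum does not hold for the share without Mcl1 alone. Per kilobase, Bcl2, Bcl2l1 and Bcl2l2 stood at 22.9, 3.15 and 4.10 in young replicate 3, beside 29.2 for the pro-death members. In old replicate 2 they stood at 21.8, 2.76 and 4.23, beside 33.9. Without Mcl1 alone the share was thus lower in old replicate 2 than in young replicate 3. The ages did not stand apart in it.

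**Figure D3:**
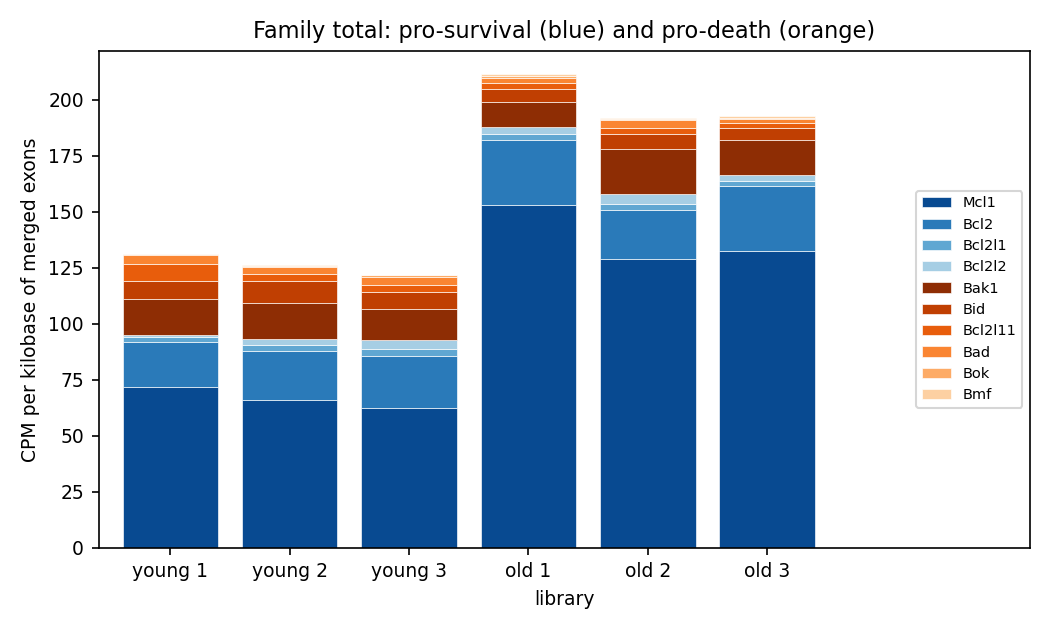
Stacked CPM per kilobase of merged exons for the 10 members in each library, pro-survival members in blue and pro-death members in orange. The Mcl1 segment is 62.5 to 71.7 in young and 129 to 153 CPM per kilobase in old libraries, while the orange part overlaps between the ages.

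Of 15 other Bcl2 family genes 11 were measured and 8 tested, and none rose or fell with edgeR, DESeq2 or limma-voom. Over all tested genes edgeR called 3.99%, so 0 calls among 8 genes do not set this list apart. None had an unadjusted p under 0.05 in edgeR, against 16.5% of all tested genes. The pore former Bax had a log2 value of −0.08 ± 0.42 SE and was picked after its values were seen. The smallest p-values of that list belonged to Bnip3l (log2 0.20 ± 0.12 SE) and Bnip3 (−0.23 ± 0.23), genes of mitochondrial turnover, and to the BH3-only gene Pmaip1 (0.43 ± 0.73). Bnip3l was higher in every old library than in any young one (edgeR adjusted p = 0.444). It was the only 1 of the 8 tested genes without overlap, against 22.4% of all tested genes. The list's median log2 fold change was 0.02.

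Of 21 genes of the apoptosome, the caspases and their inhibitors, all were tested and none rose or fell with edgeR, DESeq2 or limma-voom. With 3.99% of all tested genes called by edgeR, 0 calls among 21 do not set this list apart. It had 0 genes at an unadjusted p under 0.05 in edgeR and a median log2 fold change of −0.04. The values with the smallest p were 1.34 ± 0.63 SE for the nuclease gene Endog, −0.57 ± 0.32 for the initiator Casp9 and −0.32 ± 0.19 for Aifm1, the apoptosis-inducing factor. The edgeR adjusted p was 0.321, 0.438 and 0.446 for these 3 genes, and their groups overlapped. Of all tested genes, 16.5% had an unadjusted p under 0.05.

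Among 23 tested regulators of the members, 3 rose and none fell with edgeR, and 4 were called with DESeq2 and with limma-voom, with a median log2 fold change of −0.01. The edgeR calls are 3 of 23 genes, against 3.99% of all tested genes. Over all 14288 tested genes, 1100 were called with DESeq2 and 564 with limma-voom. As the list was chosen with earlier results of these data known, these shares describe it and are no test. Pim1, a kinase that acts downstream of cytokine receptors and phosphorylates BAD, stood at 45.1, 42.9 and 46.7 CPM in young and 100.5, 103.3 and 97.6 CPM in old libraries. Its groups lay far apart with little spread, a log2 fold change of 1.16 ± 0.13 SE (edgeR adjusted p = 0.000555). Pim2, a related kinase, stood at 21.6, 30.4 and 34.6 CPM in young and 67.6, 81.4 and 64.9 CPM in old libraries, without overlap, and rose by 1.30 ± 0.20 SE on the log2 scale (edgeR adjusted p = 0.00342). Both kinases held their calls in all 12 alternatives. Stat3, a transcription factor activated by cytokines, stood at 169.4, 211.5 and 194.8 CPM in young and 260.6, 269.3 and 302.9 CPM in old libraries. The groups did not overlap, and Stat3 rose by 0.53 ± 0.12 SE (edgeR adjusted p = 0.0289), a call lost in 5 of the 6 fits with 1 library left out, namely without young replicates 1 (adjusted p = 0.0684) or 3 (0.0561) and old replicates 1 (0.0663), 2 (0.0851) or 3 (0.163). Foxo1, picked after its values were seen, had a log2 value of 0.60 ± 0.15 SE (edgeR adjusted p = 0.0512) and was the additional call with DESeq2 (adjusted p = 0.00586), limma-voom (0.0439) and limma-voom with quality weights (0.0329).

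Of 11 death receptor pathway genes 1 rose and none fell, against 3.99% of all tested genes called, with a median log2 fold change of −0.01. Libraries of the ages stood apart without overlap for 4 of the 11, 3 higher and 1 lower in old mice, against 22.4% of all tested genes. The list was chosen with earlier results of these data known, so these shares are no test. Only 1 gene was called. It was Tnfsf10, which encodes the death ligand TRAIL, at 127.4, 152.6 and 124.2 CPM in young and 190.6, 231.5 and 223.9 CPM in old libraries. Its groups did not overlap, and it rose by 0.68 ± 0.13 SE (edgeR adjusted p = 0.0117), a call lost without old replicate 2 (adjusted p = 0.0673) or 3 (0.0729). In the authors' deposited table its adjusted p is 0.0797. The adaptor kinase gene Ripk1 (0.41 ± 0.14 SE, edgeR adjusted p = 0.148) and the receptor gene Tnfrsf1a (0.61 ± 0.25, edgeR adjusted p = 0.248) did not pass.

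**Figure D4:**
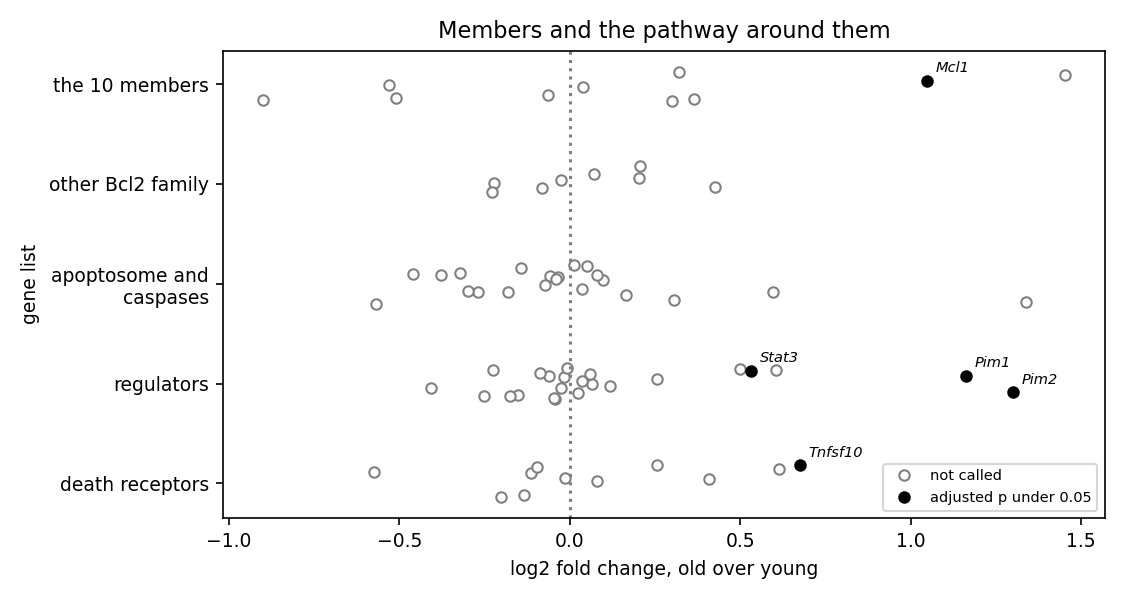
Log2 fold change, old over young, of every tested gene of the 10 members and of 4 lists around them, 1 point per gene, filled where called and spread vertically for legibility. The called genes are Mcl1, Pim1, Pim2, Stat3 and Tnfsf10, all to the right of 0.

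Gene-level counts do not separate splice forms, so the long and short forms of Bcl2l1, whose products are known to act in opposite ways, are summed in these values. The same holds for the 2 annotated coding transcripts of Mcl1 and the 5 of Bcl2l11. The rise of Mcl1 therefore cannot be assigned to a single form. In the authors' deposited table, no other member than Mcl1 passed 0.05 either, and the lowest adjusted p among the rest were 0.147 for Bcl2l11 and 0.198 for Bid.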

How the data were processed

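Low-input kits were used for the RNA of sorted HSCs and its libraries, per the labels' protocols, and single-end reads had 50 bases. Per the submitters' processing notes, the build was GRCm38 and the tools included Salmon and DESeq2. For the use of strand in counting, the sources used here give nothing. The authors deposited estimated counts per gene, which were whole numbers, for 6 libraries. A second table deposited by the authors held a base mean (a normalised signal), a log2 fold change with its standard error, a test score, and p-values. Set against the counts, its log2 values are young over old. The description of young replicate 2 carries another library number than its title, and the title decided its column. Replicates are called biological in the series design and are numbered in accession order.

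Old and young libraries were compared with edgeR 4.0.16 under R 4.3.3 (default filter, minimum count 10 and total 15, TMM scaling, quasi-likelihood F test, threshold 0.05), after a test on simulated data. Intervals use the SE implied by the F statistic and the fit's degrees of freedom. DESeq2 1.42.0, limma-voom (limma 3.58.1), other scalings, no filter and each library left out were alternatives. Symbols, coordinates and exon lengths are those of GENCODE for GRCm38, and promoters those of RefSeq. Other genes named are the 3 with the smallest p in each of 4 pathway lists, with exceptions said. The members and lists were chosen with earlier results of these data known.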

Additional observations from a re-analysis of the deposited data

How the results depend on the processing

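The count of Bcl2 family members called was 1, Mcl1, in all 12 alternatives. Over all genes the count of 570 changed genes (350 higher and 220 lower) became 1100 with DESeq2 (613 higher and 487 lower). With 1 library left out it ran from 245 to 473 genes (166 to 308 higher and 79 to 167 lower), and it was 322, 345 and 245 without old replicates 1, 2 and 3. With library size alone the split was 310 higher and 298 lower. The difference in pro-survival share, 11.7 percentage points, was 9.47 points in CPM without length and 10.2 to 13.4 points with 1 library left out. It was 12 points without the most abundant member of each side, Mcl1 and Bak1. Without Mcl1 alone the ages overlapped in the share, as described above.

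Among the members and the other genes named by rule, directions turned for Bak1, Bcl2l1, Bcl2l2 and Pmaip1, and none of these values passed. Bak1, at 0.04, had a log2 value of −0.019 with library size alone, −0.055 with limma-voom, −0.14 with quality weights, −0.03 without young replicate 3 and −0.19 without old replicate 2, and ran from −0.19 to 0.25 with 1 library left out. Bcl2l1, at −0.06, had 0.082 without young replicate 3 and 0.03 without old replicate 3, and ran from −0.19 to 0.082. Without young replicate 1, Bcl2l2 had −0.044 in place of 0.32 and Pmaip1 −0.000206 in place of 0.43, and these ran up to 0.76 and 1.38 without young replicate 3. The cause was not tested. No paired analysis was possible because the replicate numbers only follow the order of the samples. The members with the fewest counts were Bmf and Bok, with as few as 3 and 13 in a library, and counting error and spread between mice were not separated.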
